A study of Mus musculus with 24 samples.

Results

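Adrenal RNA of female mice given testosterone was compared between animals null for Kcnk3 and wild-type (WT) animals. The comparison takes the arrays described as F T1 KO TESTO (3 arrays) and F WT TESTO (3 arrays), chosen by that label alone, which makes 6 of the 24 arrays in the series. All animals are C57BL/6 by label, and both groups were female, were labelled Testosterone and differ in genotype, WT or Kcnk3 null. The other groups, of 3 arrays each, are sham females and sham or castrated males of both genotypes, and they serve here for comparison. The null allele, the testosterone dose, the ages and the times of treatment are not stated in the labels. The labels do not say whether each array is 1 animal, so p-values measure the spread between these arrays.

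Kcnk3 encodes TASK1, a background potassium channel that helps to hold the membrane potential of adrenal cortical cells. The outer zona glomerulosa makes aldosterone with Cyp11b2, and the zona fasciculata below it makes corticosterone with Cyp11b1. Mouse adrenals also have an inner X-zone, marked by Akr1c18 and Pik3c2g, which is present in young females and is lost in males at puberty under androgen. Loss of Kcnk3 is known for a disturbed zonation in female mice that androgen can prevent, and the testosterone arm addresses whether the null gland still differs from WT once androgen is given.

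A level below is the log2 signal of a probe minus the 75th percentile of its array, and a difference is null minus WT on that log2 scale with the standard error (SE) of the limma fit. The threshold for a call was an adjusted p under 0.05, by the method of Benjamini and Hochberg over 31055 features, of which 19630 have a gene symbol. Levels of different probes are not compared. Between 57.0% and 64.7% of the spots of an array lay well above background, and the number of arrays limits the precision. RNA integrity was 8, 7 and 3 in WT arrays 1 to 3 and 7, 6 and 5 in null arrays 1 to 3. Arrays 1 of both groups share a slide, as do arrays 2, while null array 3 and WT array 3 lay on different slides. All 7 adrenal cortex markers (Star, Cyp11a1, Cyp21a1, Cyp11b1, Hsd3b1, Mc2r and Nr5a1) were above background in both groups, with differences from -0.13 to 0.05 and a median of -0.05 that turned to 0.14 without null array 1. The tissue label was thus borne out by its defining markers.

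The WT testosterone arrays go against their sex label. Ddx3y, a Y-linked RNA helicase, read 0.39, -0.33 and 0.47 in the WT arrays, which is 30.8%, 18.8% and 32.7% of the mean of WT sham males. Eif2s3y, a Y-linked translation initiation factor, read 0.52, -0.31 and 0.69 in them. In the null testosterone arrays neither gene was well above background on any array. Their differences were called, with Ddx3y at least 52.0-fold lower in the null arrays (adjusted p = 0.000571) and Eif2s3y at least 56.9-fold lower (adjusted p = 0.00041). Such a bound sets the mean of the measured group against the lowest signal that still counted as well above background. With normexp and quantile normalization the fitted differences were smaller, -3.80 for Ddx3y and -3.91 for Eif2s3y, and were called. Of the other Y-linked probes measured, Uty was above background on 2 WT arrays and no null array, and Kdm5d on no array of either group. Xist, the X inactivation RNA, read 1.89, 3.22 and 2.73 in the WT arrays and 2.35, 3.40 and 4.59 in the null arrays, so the groups overlapped. Since every WT array carries the Y-linked signal, no difference below can be given without it, and its part in them was not tested.

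Null array 1 carries liver transcripts. Albumin read 8.29 there, against -0.14 and -3.51 in null arrays 2 and 3 and -0.13, -2.30 and -1.09 in the WT arrays. Of 21 liver genes measured, 19 had a higher mean in the null group, with a median difference of 2.41 that became -0.27 without null array 1. The summed level of the list ran from 168 to 312 in the WT arrays and from 129 to 2491 in the null arrays. None of the 21 was called, and none had an unadjusted p under 0.05 in limma.

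Kcnk3 itself was read by 1 probe, at chr5:30927090-30927149 (mm9), which the files assign to this gene; the labels do not say whether it lies in the deleted part. It read 5.68, 5.75 and 5.65 in the WT arrays and 2.08, 3.01 and 2.26 in the null arrays. The 3 WT arrays lay within 0.11 of each other, and every null array was far below them. The difference was -3.25 (SE 0.32, adjusted p = 0.000207), or 9.49-fold lower. It stayed between -3.53 and -3.06 when any array of the 2 groups was left out, and was called each time. In the fit of these 6 arrays alone the same difference was not called (adjusted p = 0.133). The WT testosterone arrays had 66.5% to 71.6% of the mean Kcnk3 level of WT sham females.

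Abhd1, an alpha/beta hydrolase gene on chromosome 5 close to Kcnk3, read 0.67 or more on all 12 null arrays of the series and 0.22 or less on all 12 WT arrays. Its 60-base probe is shown because it separates the genotypes in every group of animals; its target spans 140 bases (chr5:31256786-31256925, mm9).
Abhd1 probe: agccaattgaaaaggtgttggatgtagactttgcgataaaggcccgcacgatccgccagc
Abhd1 read 1.01, 1.20 and 0.67 in the null testosterone arrays. In the WT testosterone arrays it read 0.11, -0.75 and 0.22, against -2.89, -2.67 and -2.07 in WT sham females. The WT testosterone arrays thus lay between the other WT females and the null animals, at 608%, 337% and 656% of the mean of WT sham females. Such a level was not theirs alone: castrated WT males read -2.42, -0.80 and -0.85. The difference under testosterone was 1.10 (SE 0.35, adjusted p = 0.319), whereas in sham females it was 3.61 (SE 0.35, adjusted p = 4.26e-05).

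Under testosterone 11 of 31055 features were called (0.0354%), 10 lower in the null arrays (0.0322%) and 1 higher (0.00322%). An unadjusted p under 0.05 was met by 2488 features (8.01%). The values of the 2 groups did not overlap for 2708 of 30992 features with a value on all 6 arrays (8.74%), 1669 with the null arrays lower (5.39%) and 1039 with them higher (3.35%). Leaving out an array gave 4 calls without WT array 1, 5 without null array 2, 6 without WT array 3, 7 without null array 1, 7 without WT array 2 and 10 without null array 3. With the replicate number as a block, 48 features were called, 40 lower and 8 higher, and they included all 11. With normexp background correction and quantile normalization 5 of 23 calls were higher in null (21.7%), beside 1 of 11 here (9.09%).

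Besides Kcnk3 and the Y-linked genes, the called genes were Tafa2, Macc1, Obp2a, Pla2g2e and Gm7899, all lower in the null arrays. Tafa2 (also Fam19a2) encodes a secreted chemokine-like protein of the nervous system, Macc1 a regulator of growth factor receptor expression, Obp2a an odorant-binding lipocalin and Pla2g2e a secreted phospholipase. Gm7899 is a predicted gene. The promoters of Tafa2, Macc1 and Obp2a are printed because these genes, with Akr1c18, are members of the comparison with large differences on either side of a call. Each runs from 250 bases before to 50 bases after the start in RefSeq (GRCm38.p6), on the plus strand at chr10:123263826-123264125, chr12:119443160-119443459 and chr2:25699824-25700123, and for Akr1c18 on the minus strand at chr13:4150597-4150896. Capitals mark the letters TATAAA or TTTATA, where present, as a match of letters only.
Tafa2 promoter: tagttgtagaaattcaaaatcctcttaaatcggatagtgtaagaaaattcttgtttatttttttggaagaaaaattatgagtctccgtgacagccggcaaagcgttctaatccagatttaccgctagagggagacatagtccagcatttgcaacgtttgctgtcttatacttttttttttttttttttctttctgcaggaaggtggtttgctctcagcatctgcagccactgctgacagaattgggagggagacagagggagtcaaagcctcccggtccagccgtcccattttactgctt
Macc1 promoter: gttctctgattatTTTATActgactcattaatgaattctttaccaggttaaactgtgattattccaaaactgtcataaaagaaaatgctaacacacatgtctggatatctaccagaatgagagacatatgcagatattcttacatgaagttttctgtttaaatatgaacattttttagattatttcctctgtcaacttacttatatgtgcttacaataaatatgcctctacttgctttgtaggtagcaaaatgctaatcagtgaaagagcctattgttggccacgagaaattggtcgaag
Obp2a promoter: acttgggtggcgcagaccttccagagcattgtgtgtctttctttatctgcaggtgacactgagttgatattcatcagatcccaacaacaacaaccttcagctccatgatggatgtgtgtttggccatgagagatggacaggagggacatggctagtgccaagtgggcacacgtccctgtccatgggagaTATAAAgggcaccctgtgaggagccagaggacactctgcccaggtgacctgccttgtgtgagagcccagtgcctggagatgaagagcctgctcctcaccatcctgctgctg
Akr1c18 promoter: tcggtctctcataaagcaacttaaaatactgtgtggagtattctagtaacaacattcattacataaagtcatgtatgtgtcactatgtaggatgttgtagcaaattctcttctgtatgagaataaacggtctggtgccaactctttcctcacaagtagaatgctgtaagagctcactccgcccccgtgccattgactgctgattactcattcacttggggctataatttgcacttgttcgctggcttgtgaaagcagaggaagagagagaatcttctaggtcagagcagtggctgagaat
The letters TATAAA or, on the other strand, TTTATA occur in 13.6% of 32851 RefSeq promoters of this length, and in those of Obp2a, 61 bases before the start, and Macc1, 237 bases before it. The NR5A1 site CAAGGTCA (or TGACCTTG), present in 1.56%, was in none of the 4 windows, nor in that of Pla2g2e.

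Tafa2 read 0.14, -0.71 and 0.63 in the WT arrays and -3.08, -3.19 and -2.52 in the null arrays. All WT arrays were above all null arrays, and the null arrays were near the WT sham females (-2.52, -2.95 and -4.07). The difference was -2.95 (SE 0.44, adjusted p = 0.0162), or 7.71-fold lower. In sham females the order was the reverse: Tafa2 read 0.99, 0.12 and 1.74 in the null arrays, and the difference was 4.13 (SE 0.44, adjusted p = 0.000121). The call under testosterone was lost without WT array 1 (adjusted p = 0.0622), null array 1 (0.0595), null array 2 (0.076) or WT array 3 (0.109).

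Macc1 read -2.66, -2.66 and -2.13 in the WT arrays and was not well above background on any null array, so it was at least 8.22-fold lower there on this scale (adjusted p = 0.0176). Its fitted difference was -1.30 with normexp and quantile normalization and -1.88 in the deposited table, smaller than that bound and called in both. In sham females it was above background on all 3 null arrays (-2.93, -3.81 and -2.40) and on no WT array. The call under testosterone was lost when any one of the 6 arrays was left out, with adjusted p from 0.0552 to 0.119.

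Obp2a was above background on every WT array, at -1.92, -4.16 and -2.96, and on no null array, which makes it at least 5.71-fold lower on this scale (adjusted p = 0.0297). Its fitted difference was -1.27 with normexp and quantile normalization and -1.68 in the deposited table, and was called in neither. Pla2g2e read -2.61, -1.61 and -1.46 in the WT arrays and -4.23, -4.53 and -3.84 in the null arrays. Its difference was -2.30 (SE 0.37, adjusted p = 0.023), and in sham females it was -1.67 (SE 0.37, adjusted p = 0.0517). Gm7899 read 4.96, 5.05 and 4.61 in the WT arrays and 3.52, 3.89 and 3.78 in the null arrays, a difference of -1.14 (SE 0.17, adjusted p = 0.0162) without overlap. Of these 3, Obp2a was called in 1 of the 6 fits that each leave out 1 array, Pla2g2e in 2 and Gm7899 in 3. The remaining calls have no symbol: AV074028 was at least 1.91-fold higher in the null arrays, and an RNA read at chr11:95650131-95650190 and a transcript at chr16:23469978-23470037 were lower by 2.21 and 1.90 on the log2 scale. AV074028, the single higher call, kept it in 7 of 20 alternatives and in none of the 6 fits without an array, with differences down to 0.23. The chromosome 11 RNA kept its call in 9 of 20, with differences as small as -0.33, and the chromosome 16 transcript in 9 of 21.

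**Figure D1:**
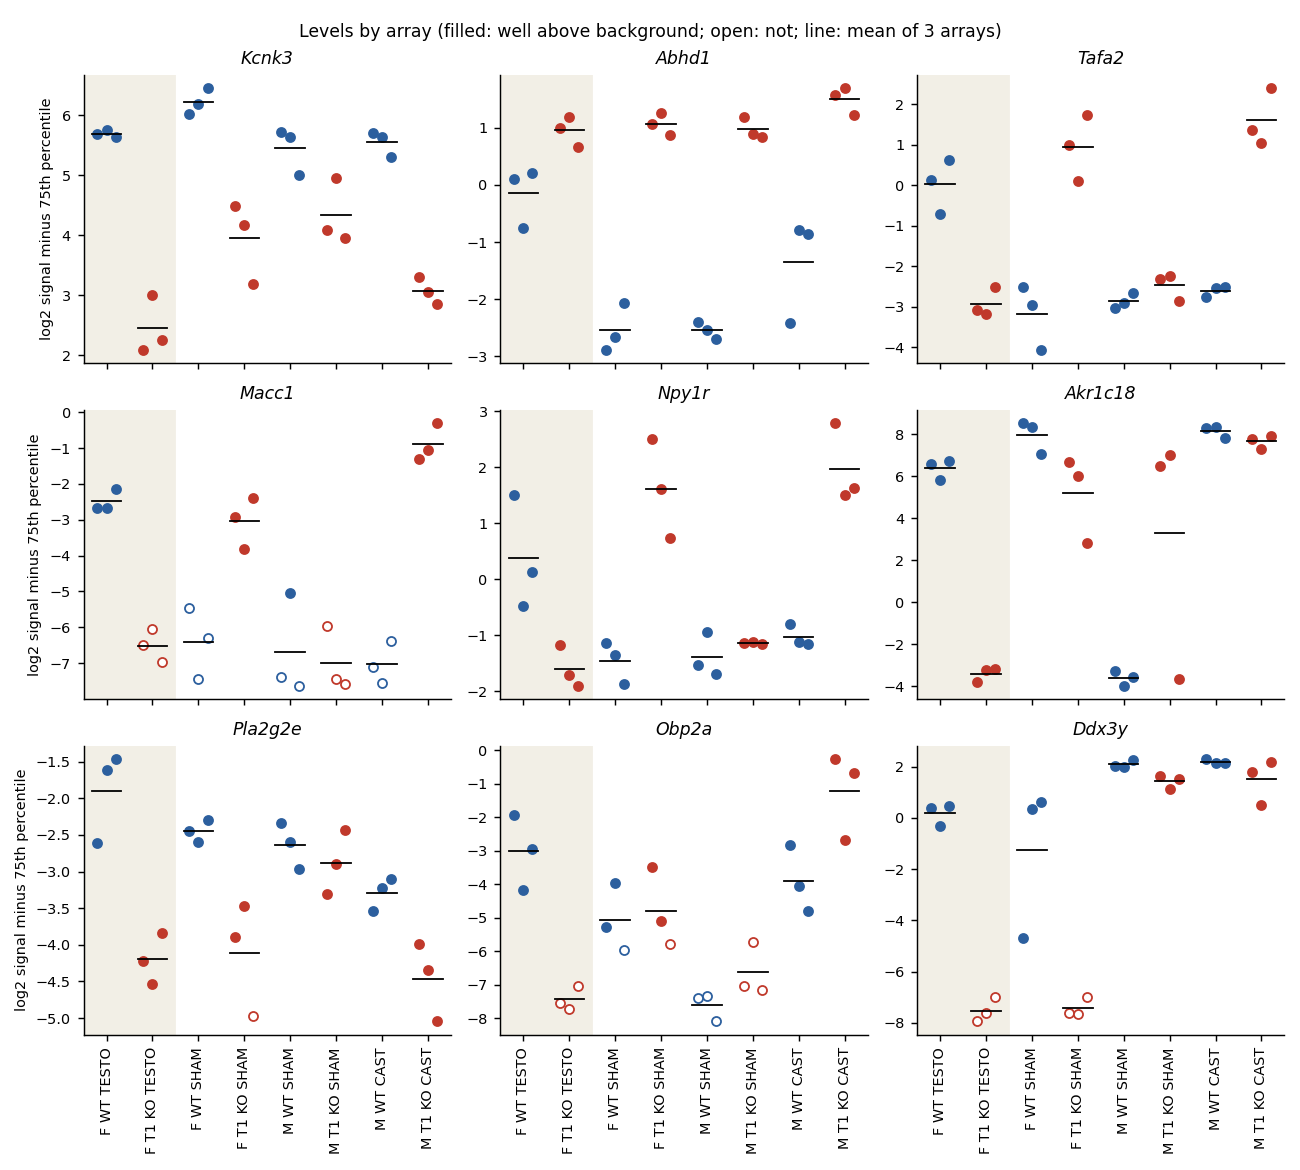
Level (log2 signal minus the 75th percentile of the array) of 9 genes in each of the 24 arrays, by group, with WT in blue and null in red, filled points well above background, open points not, and a line at the mean of 3 arrays. In the shaded testosterone females the 3 WT arrays and the 3 null arrays do not overlap for any of the 9 genes, and Tafa2, Macc1 and Npy1r are low in the null arrays there but high in null sham females and castrated null males.

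Several genes high in the WT testosterone arrays were also high in castrated null males. Tafa2 read 1.36, 1.03 and 2.41 and Macc1 -1.31, -1.05 and -0.31 in these males (M T1 KO CAST). Against castrated WT males Tafa2 was higher by 4.20 (adjusted p = 7.93e-05) and Macc1 at least 25.2-fold higher (adjusted p = 7.06e-05). These castrated null males also carried Xist against their label (0.52, 1.87 and -1.01). Relative to the mean of castrated null males, the WT testosterone arrays 1 to 3 had 41.5%, 25.3% and 43.9% for Ddx3y and 42.7%, 24.0% and 48.0% for Eif2s3y. Tafa2 stood at 33.2%, 18.5% and 46.9% on that scale, and Macc1 at 28.0%, 28.0% and 40.5%. Akr1c18, the X-zone marker, stood at 45.6%, 27.2% and 51.6%, and Abhd1 at 37.5%, 20.8% and 40.5%. WT array 2 was lowest of the 3 for each of these genes but Macc1, where it equalled array 1 to the digits given. A high Akr1c18 level was not particular to castrated null males (7.79, 7.32 and 7.94). Akr1c18 read 8.33, 8.35 and 7.82 in castrated WT males and 8.53, 8.37 and 7.05 in WT sham females. In the null testosterone arrays Tafa2 had 3.32% to 5.28%, Macc1 1.42% to 2.66% and Akr1c18 0.0348% to 0.0534% of the castrated null male level. Not every called gene followed this pattern. Pla2g2e read -3.99, -4.34 and -5.05 in castrated null males, below the WT testosterone arrays at -2.61, -1.61 and -1.46. Kcnk3 read 3.30, 3.06 and 2.84 in castrated null males, also below the WT testosterone arrays at 5.68, 5.75 and 5.65. Whether RNA from other animals is present in the WT arrays was not tested.

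**Figure D2:**
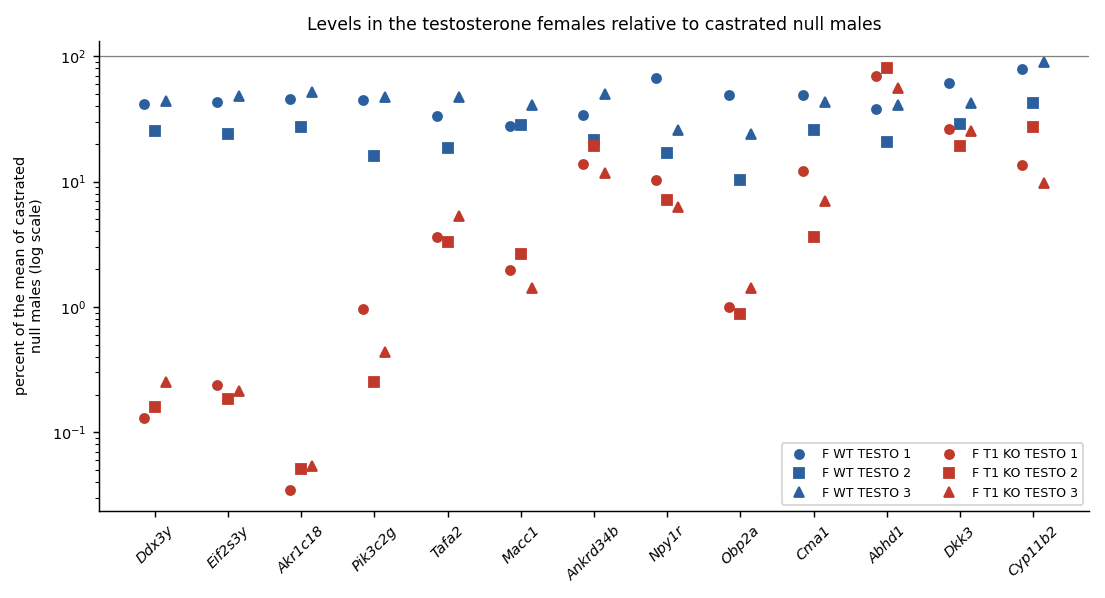
Level of 13 genes in each testosterone female array, in percent of the castrated null male mean (3 arrays), on a log axis, with WT arrays in blue, null arrays in red and a marker shape for each array number. Ddx3y, Eif2s3y, Akr1c18, Tafa2 and Macc1 lie between 18.5% and 51.6% in the WT arrays, and in the null arrays at 5.28% or less. These ranges do not cover all 13 genes. In the WT arrays Obp2a fell below 18.5% on array 2, and Cyp11b2 rose above 51.6%.

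Akr1c18, an X-zone gene, had the largest difference of all features tested, without a call. It encodes the progesterone-inactivating 20-alpha-hydroxysteroid dehydrogenase and read 6.57, 5.83 and 6.75 in the WT arrays. It read -3.78, -3.23 and -3.16 in the null arrays, near the WT sham males (-3.27, -3.97 and -3.56). WT sham females read 8.53, 8.37 and 7.05, and null sham females 6.69, 6.02 and 2.85. The groups did not overlap under testosterone, and the difference was -9.78 (SE 1.75, adjusted p = 0.06) on the log2 scale. With the replicate block it was called (adjusted p = 0.0273), as it was with the 6 arrays alone (adjusted p = 0.00143). The SE of the main fit takes in the spread of all 8 groups, among them null sham males at 6.51, 7.00 and -3.65. Pik3c2g, a lipid kinase gene, read -0.30, -1.78 and -0.24 in the WT arrays and was above background on no null array, at least 26.3-fold lower (adjusted p = 0.146). The Akr1c18 levels of the WT testosterone arrays lay below every WT sham female array and far above every null testosterone array, and these WT arrays carry the Y-linked signal; in bulk RNA, fewer cells of a type and less RNA per cell cannot be told apart.

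Of 6 genes listed as repressed by androgen in this tissue, 5 were lower in the null arrays, with a median of -1.16, and none was called. The list was chosen with earlier results of these data known, so its direction is no independent evidence. Of the 6, 3 had an unadjusted p under 0.05 (8.01% of all features). For 3 the groups did not overlap, all with the null arrays lower (5.39% of all features). Cst8, a cystatin gene, read 1.37, 0.79 and 1.03 in the WT arrays and -0.34, -0.80 and -0.31 in the null arrays (difference -1.55, SE 0.44, adjusted p = 0.259). Nrep, a small protein gene of neuronal regeneration, read 2.25, 1.21 and 2.17 against 0.58, -0.08 and 0.63 (difference -1.50, SE 0.47, adjusted p = 0.322). Akr1d1, a steroid 5-beta-reductase of liver, was above background in all WT arrays and in null array 1 alone, the array with liver transcripts (difference -4.33, SE 1.20, adjusted p = 0.235). The 4 genes listed as raised by androgen (Susd3, Cited1, Crym and Acan) had a median of 0.81, all with overlapping groups, and 0 of them had an unadjusted p under 0.05.

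The next question was whether the null difference under testosterone is that of sham females. There 153 features were called (0.493%), 110 higher in null (0.354%) and 43 lower (0.138%), on arrays that are not among the 6. Among the 110, the median difference was 1.51 in sham females and 0.08 under testosterone, where 63 were above 0 and 47 below it. Their groups did not overlap for 19 with null higher (3.35% of all features) and 18 with null lower (5.39% of all features). Among the 43, the median was -1.63 in sham females and -0.76 under testosterone, where 37 were below 0. For 27 of these 43 the testosterone groups did not overlap, in each case with the null arrays lower (5.39% of all features). The sham lists were called on the sham arrays, and all 3 WT sham female arrays also carry Y-linked signal, with Ddx3y at -4.70, 0.33 and 0.61.

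Of the 43, 4 were also called under testosterone, all lower in null in both comparisons (Kcnk3, Ddx3y, Eif2s3y and the transcript on chromosome 16). Of the 110, 2 were called under testosterone, Tafa2 and Macc1, with the opposite sign. Among the others that kept apart under testosterone were genes of sterol synthesis. Insig1, a sterol-responsive brake on that pathway, read -0.09, 0.33 and 1.07 in the WT arrays and -1.05, -0.89 and -0.71 in the null arrays. The Insig1 difference was -1.32 (SE 0.34, adjusted p = 0.192), beside -1.63 (SE 0.34, adjusted p = 0.0344) in sham females. Cd1d2, a lipid antigen-presenting molecule, was at -1.54 (SE 0.31, adjusted p = 0.104) and -1.94 (SE 0.31, adjusted p = 0.00465). Bcl2l10, of the BCL2 family, was at -1.73 under testosterone and -2.01 in sham females, Nf2, the merlin tumour suppressor, at -0.91 and -1.24, and Gnai1, an inhibitory G protein subunit, at -0.99 and -1.15. Values under testosterone were near 0 for Tafa4 (-0.21, against -2.79 in sham females), Ecrg4 (0.29 against -1.96) and the angiotensin receptor gene Agtr1b (0.12 against -1.70).

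**Figure D3:**
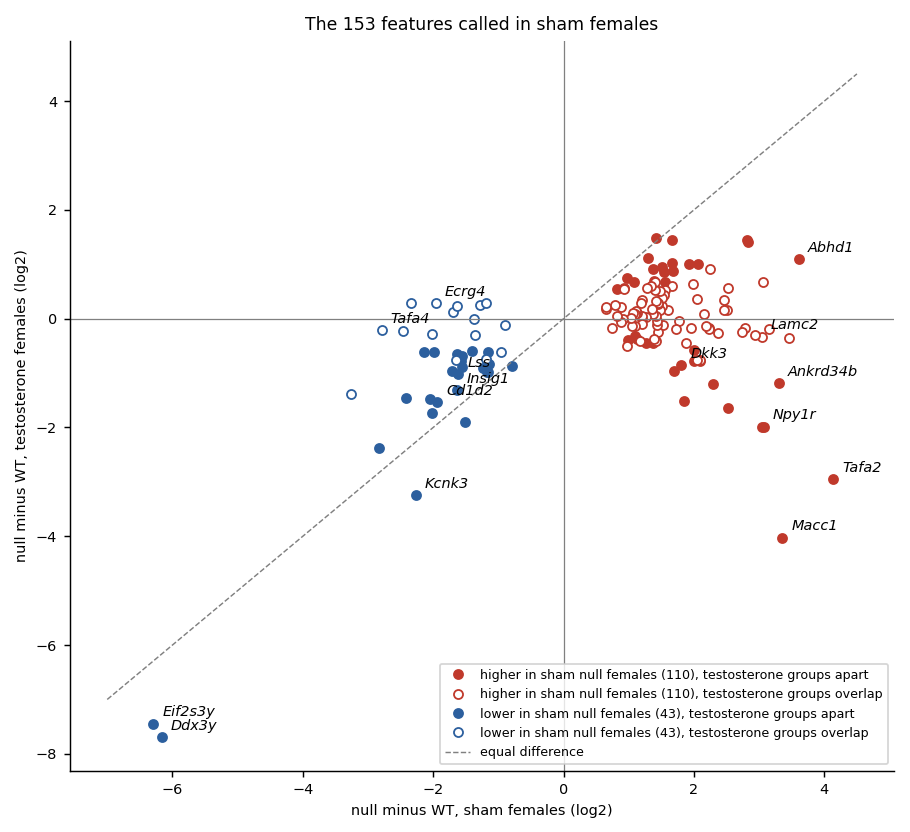
Null minus WT difference (log2) in sham females on the x axis and in testosterone females on the y axis, for the 153 features called in sham females, 110 higher in red and 43 lower in blue, filled where the testosterone groups do not overlap. The blue points lie mostly below 0 on the y axis (37 of 43), the red points on both sides of it (63 above, 47 below), with Tafa2, Macc1 and Npy1r at the bottom right.

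The difference between these differences was tested as an interaction (testosterone minus sham), which called 30 features (0.0966%), 26 lower (0.0837%) and 4 higher (0.0129%). Of the 30, 26 were called in sham females and 2, Tafa2 and Macc1, under testosterone. The count was 19 without WT testosterone array 1 and 50 without null sham array 3, and with the replicate block it was 43. The interaction was -7.08 for Tafa2 (SE 0.63, adjusted p = 3.58e-05) and its 4 female groups were above background on every array. Ankrd34b, an ankyrin repeat gene, was at -4.48 (SE 0.43, adjusted p = 6.81e-05) and Npy1r, a neuropeptide Y receptor gene, at -5.05 (SE 0.65, adjusted p = 0.00173). Npy1r read 1.51, -0.47 and 0.13 in the WT testosterone arrays and -1.18, -1.70 and -1.90 in the null ones, where the difference was -1.98 (SE 0.46, adjusted p = 0.159, and 0.0359 with the replicate block). In sham females it was 3.07 (SE 0.46, adjusted p = 0.00237). Dkk3, a secreted Dickkopf family protein, read 3.97, 2.87 and 3.42 in the WT testosterone arrays against 2.74, 2.28 and 2.69 in the null ones, with an interaction of -2.66 (SE 0.36, adjusted p = 0.0023). Serpinb1a, an inhibitor of neutrophil proteases, read 6.63, 4.51 and 5.50 against 4.05, 3.80 and 3.34, with an interaction of -3.98 (SE 0.69, adjusted p = 0.023).

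The 16 genes listed as raised in null glands of low-androgen groups were a list chosen with results of these arrays known, so its direction is no independent evidence. Under testosterone 14 of 16 had a lower mean in the null arrays and 2 were called (Tafa2 and Macc1). Of the 16, 7 were separated with null lower (5.39% of all features) and 1, Abhd1, with null higher (3.35% of all features). Their median was -0.42, against 2.86 in sham females and -0.02 over all features. For Wipf3, an actin regulator, the testosterone groups overlapped at 0.58, -0.22 and 0.34 against -0.34, 0.47 and 0.04, and both lay above the WT sham females (-1.27, -1.49 and -1.76). Bdnf, the neurotrophin, was at -1.60 (SE 0.54, adjusted p = 0.347). Of the 12 genes listed as lost in low-androgen null glands, the median was 0.16 under testosterone (-0.12 without WT array 3) and -2.08 in sham females, with none called. Of the 12, 5 had an unadjusted p under 0.05 (8.01% of all features). Ncan (-1.93), Pde5a (-1.84) and Ccn5 (-1.46) were separated with null lower (5.39% of all features). With null higher 1 was separated, Wif1 (3.35% of all features). Wif1, a Wnt inhibitor, read -4.06, -3.50 and -2.85 in the null arrays and was above background on 2 of the 3 WT arrays; its difference was 1.49 (SE 0.41, adjusted p = 0.235), with an interaction of 3.31 (SE 0.58, adjusted p = 0.0278).

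Of 13 steroid synthesis genes 11 had a lower mean in the null arrays, with a median of -0.13 that turned to 0.07 without null array 1, the array with liver transcripts, and none was called; Cyp11b2 was the single member with an unadjusted p under 0.05. Cyp11b2, the aldosterone synthase gene, read 2.47, 1.58 and 2.66 in the WT arrays and -0.06, 0.94 and -0.54 in the null arrays. These groups did not overlap, and the difference was -2.12 (SE 0.49, adjusted p = 0.155). WT sham females read 0.82, 0.79 and 1.61 and castrated null males 3.29, 1.82 and 2.96, so the WT testosterone arrays reached 42.5% to 89.7% of the castrated null male mean. The other zona glomerulosa genes had differences from -0.61 (Smoc2) to 0.97 (Shh), and the list of 16 had a median of 0.09 that turned to -0.17 without WT array 3. Mrap, the accessory protein of the ACTH receptor, was the fasciculata gene with a separation: 6.13, 5.87 and 5.48 in the WT arrays against 4.79, 5.01 and 4.70 in the null arrays. Its difference of -0.99 (SE 0.22, adjusted p = 0.149) was called with the replicate block (adjusted p = 0.0359) and equalled that in sham females (-0.99). Without Mrap the fasciculata genes lay between -0.26 and 0.40.

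Of 26 genes of cholesterol synthesis and handling none was called, and 22 had a lower mean in the null arrays. Of the 26, 6 were separated, all with null lower (Insig1, Lss, Fdps, Idi1, Mvd and Scarb1), beside 5.39% of all features. An unadjusted p under 0.05 was met by 3, beside 8.01% of all features. The median was -0.41, against -1.05 in sham females, where 5 were called lower. Lss, lanosterol synthase, read -0.46, -0.11 and 0.59 in the WT arrays and -0.92, -0.96 and -1.17 in the null arrays (difference -1.02, SE 0.28, adjusted p = 0.226). Fdps, farnesyl diphosphate synthase, was at -0.76 (SE 0.28, adjusted p = 0.414) here, and at -1.59 (SE 0.28, adjusted p = 0.0117) in sham females. The interaction called none of the 26.

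**Figure D4:**
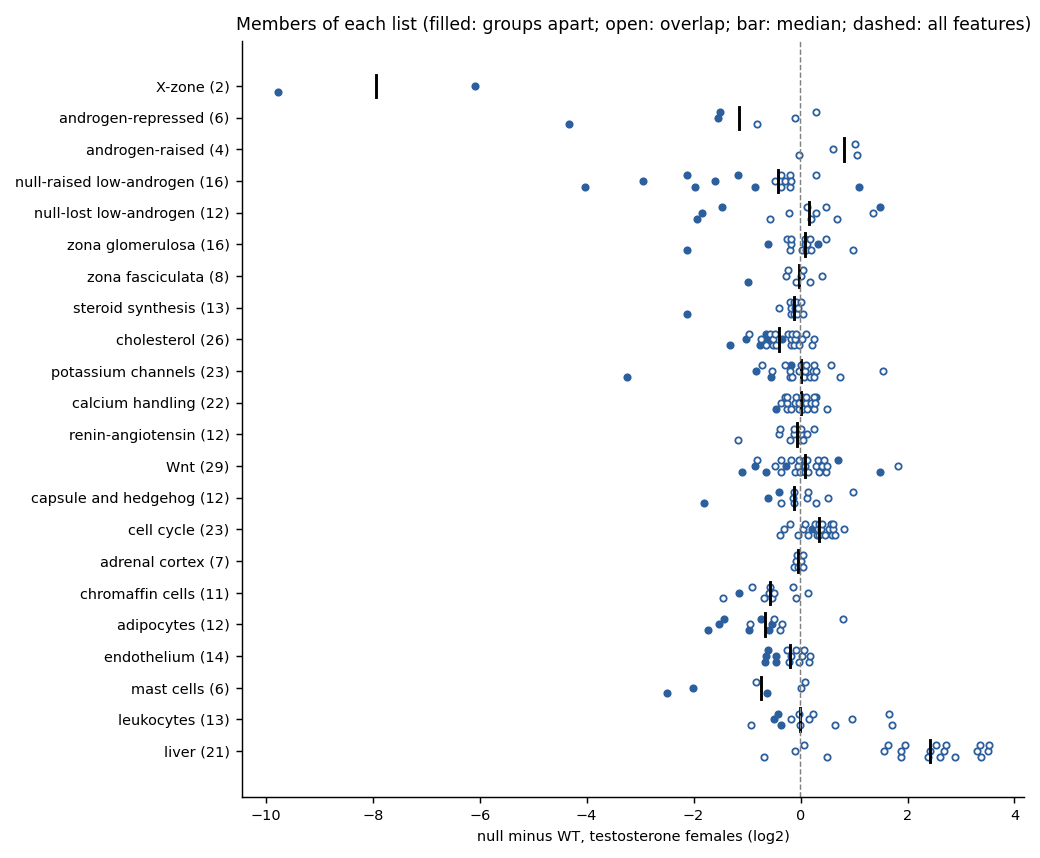
Null minus WT difference under testosterone (log2) of the members of 22 gene lists, number measured in brackets, filled where the groups do not overlap, with a bar at the list median and a dashed line at the median of all features (-0.02). X-zone genes lie at -9.78 and -6.10, and cholesterol, chromaffin, adipocyte and mast cell medians lie between -0.73 and -0.41.

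Among 23 potassium channel genes Kcnk3 was the single call. Kcnk9, which encodes the related channel TASK3, read 4.46, 4.26 and 4.01 in the WT arrays and 3.29, 4.72 and 4.99 in the null arrays, so the groups overlapped (difference 0.09, SE 0.30). Kcnk2 (TREK1) was at -0.83 (SE 0.38, adjusted p = 0.586), Kcnk6 at -0.56 (SE 0.20, adjusted p = 0.404) and Kcnk1 at 0.74 (SE 0.37, adjusted p = 0.646). Kcnq1 and Kcnmb4, a voltage-gated channel and a subunit of calcium-activated channels, were called higher in null sham females (1.44 and 2.23) and stood at 0.29 and -0.19 here. The 22 calcium handling genes had a median of 0.00, with none called and 1 at an unadjusted p under 0.05. The 12 renin-angiotensin genes had a median of -0.06, with none called and 2 at an unadjusted p under 0.05. Renin (Ren1) was at -1.16 (SE 0.48, adjusted p = 0.508) and its groups overlapped.

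No Wnt, hedgehog or cell cycle gene was called. An unadjusted p under 0.05 was met by 8 of 29, 3 of 12 and 0 of 23, beside 8.01% of all features. Rnf43, a ligase that removes Wnt receptors, read 0.17, 0.32 and 0.23 in the null arrays, above the WT arrays at -0.54, -0.22 and -0.64 (difference 0.70, SE 0.18, adjusted p = 0.187). Sfrp1, a secreted Wnt antagonist, was lower without overlap (-0.64, SE 0.19, adjusted p = 0.298). Znrf3 (-0.28) and Wnt2b (-1.09) were also lower without overlap. Of the 29 Wnt genes, 4 were separated with null lower (5.39% of all features) and 2 with null higher (3.35% of all features). Of the 12 capsule and hedgehog genes, Gli1, Gli2 and Pdgfra were separated with null lower (5.39% of all features were). The cell cycle list had 19 of 23 genes with a higher mean in null, with a median of 0.34 that became -0.04 without WT array 3, the array of RNA integrity 3.

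Markers of other cells in the gland differed between the groups without a call. Of 12 adipocyte genes 11 had a lower mean in the null arrays and 7 were separated with null lower (5.39% of all features were). The median of the 12 was -0.66, with none called and 6 at an unadjusted p under 0.05 (8.01% of all features). Ucp1, of brown fat, read 6.96, 7.77 and 8.19 in the WT arrays and 6.34, 5.51 and 5.88 in the null arrays (difference -1.73, SE 0.46, adjusted p = 0.207). The summed adipocyte level ran from 1413 to 2581 in the WT arrays and from 1133 to 1202 in the null arrays. Of 11 chromaffin genes 10 had a lower mean, with a median of -0.56; Th, tyrosine hydroxylase, was separated (-1.16, SE 0.36, adjusted p = 0.316), and null array 2 was lowest, at 3.70 against 5.43 and 5.52. Against the same 5.39%, 5 of 14 endothelial genes were separated with null lower (Tek, Pecam1, Eng, Emcn and Flt1), with a median of -0.20. Of the 14, 10 had a lower mean in null and 4 a higher one. Against 5.39% again, 3 of 6 mast cell genes were separated with null lower, the proteases Cma1 and Cpa3 and the receptor Fcer1a. Of the 6, 4 had a lower mean in null and 2 a higher one, Kit (0.08) and Tpsb2 (0.002). Cma1 was at -2.49 (SE 0.52, adjusted p = 0.113, and 0.0427 with the replicate block), and castrated null males were the group with its highest level. The part of fat, medulla, vessels or mast cells in the differences above was not tested. Kidney, red blood cell, leukocyte, gonad and lymph node or pancreas lists had 0 calls, with medians from -0.42 (kidney, 0.39 without WT array 3) to 0.74 (lymph node or pancreas, 0.09 without null array 1) and 1, 0, 3, 2 and 0 members at an unadjusted p under 0.05.

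Genes next in rank were not called but were separated between the groups. Lower in null were H2bc6, a histone gene (-0.86, adjusted p = 0.06), Rint1, of Golgi traffic (-1.23, adjusted p = 0.0714), Itgbl1 (-0.93, adjusted p = 0.083), Rbp7, a retinol-binding protein (-1.51, adjusted p = 0.0923), Slc25a34, a mitochondrial carrier (-2.57, adjusted p = 0.0923), and Fmod, a collagen-binding proteoglycan (-1.27, adjusted p = 0.104). Higher in null were Map3k21 (1.15, adjusted p = 0.104), Defb14, a beta-defensin (1.48, adjusted p = 0.106), Cyp4f15, a fatty acid hydroxylase (4.26, adjusted p = 0.112), Lefty1, a NODAL antagonist (0.90, adjusted p = 0.126), and Crip3, Hyi, Lin7b and Slc35d1 (0.67 to 1.26). Cyp4f15 read -4.08 or less in the WT arrays and 1.04, -1.69 and -0.81 in the null arrays, highest in the array with liver transcripts. With the replicate block H2bc6 (adjusted p = 0.0276), Rint1 (0.0359), Itgbl1 (0.0451), Cd1d2 (0.0263) and Map3k21 (0.0359) were called. Defb14 was also called in sham females (1.42, adjusted p = 0.0399).

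Within 5 Mb of the Kcnk3 probe 215 other features were measured, none called, with 34 at an unadjusted p under 0.05 (8.01% of all features). Of them 26 were separated with null lower (5.39% of all features) and 5 with null higher (3.35% of all features). Their median was -0.05, and 0.03 without null array 1 or without WT array 3. Abhd1 and Khk, the ketohexokinase gene, were among the 5 (1.10 and 0.65), and Insig1 was among the 26.

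Testosterone itself was compared with sham within each genotype; these contrasts use the same 6 arrays, so they are not independent of the values above. Between WT females 28 features were called (0.0902%), 10 higher (0.0322%) and 18 lower (0.058%), and between null females 65 were called (0.209%), 9 higher (0.029%) and 56 lower (0.18%). Tafa2 was higher with testosterone in WT by 3.20 (adjusted p = 0.00978) and fell by 3.88 in null (adjusted p = 0.000668).

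Sham males are the other animals with androgen. Kcnk3 itself was not called there (-1.12, adjusted p = 0.678 in limma), at 4.09, 4.96 and 3.96 in the null arrays and 5.73, 5.64 and 5.00 in WT. The null difference in sham males was set against that in testosterone females by an interaction, which called 13 features (0.0419%), all lower. Akr1c18 was at -16.67 (SE 2.47, adjusted p = 0.0153): in sham males the null arrays read 6.51, 7.00 and -3.65 against -3.27, -3.97 and -3.56 in WT, so 2 of the 3 null male arrays lay far above WT, the opposite order to the testosterone females. Akr1d1, Cst8, Nrep and Frzb were also called (-11.12, -4.33, -4.02 and -5.14), all from the androgen-repressed list, which was chosen with earlier results of these data known. So was Xist, which read 0.33, 0.22 and -1.45 in the null sham males and was above background on no WT sham male array; these null male arrays thus carry an X inactivation signal against their label. Leaving out null sham male array 1 gave 1 call and array 2 gave 0 in limma, with 1344 features at an unadjusted p under 0.05. Without WT testosterone array 1 there were 2 calls, without null testosterone arrays 2 and 3 there were 7 and 3, and without WT sham male arrays 2 and 3 there were 7 and 4.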

How the data were processed

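Total RNA was hybridized to Agilent arrays of 1 colour (Cy3). Per the file headers, the deposited scanner files hold spot intensity values of Feature Extraction, whose processed signal is background-subtracted, with mm9 probe positions. The deposited value table holds values of the authors that were taken here as log2. Their ranks followed those of log2 mean signal (Spearman correlation 0.997 to 0.998), and a rank correlation does not show the scale. The normalization of that table is not given in the sources used here.

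Here, log2 of the processed signal minus each array's 75th percentile was used. Control spots and outlier spots (160 to 283 per array) were left out, and spots of a probe were averaged. Probes well above background on at least 3 of 24 arrays were kept (36832), and the probe with the highest mean stood for a symbol. Of 55681 probes, 26525 were named by accession and 4543 by symbol in RefSeq, 2513 kept the file's name and 22100 had none. Null minus WT was fitted with limma 3.58.1 under R 4.3.3 (lmFit, eBayes; 8 group means, 16 residual degrees of freedom), with Benjamini-Hochberg adjustment over 31055 features. Tables and figures were made with matplotlib 3.10.9, pandas 2.3.3 and numpy 2.4.6 (Python 3.11.15). The procedure was tested on simulated data.

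Deviations from the group means correlated by 0.14, 0.18 and 0.41 between same-numbered WT and null testosterone arrays. Correlations between arrays of different number were not computed, so these values do not show pairing. The numbers, taken from the labels, were used as pairs in the fit with a replicate block. The WT and null arrays numbered 3 lay on different slides. With this block in limma and only the 2 testosterone groups, Ddx3y, Eif2s3y and Akr1c18 were called. Kcnk3 (adjusted p = 0.515), Map3k21, H2bc6 and Npy1r (0.939 each) were not. A lower bound of a fold is given where no array of a group was well above background. Named genes are Kcnk3, called features with a symbol, the 8 separated features of smallest p in each direction that were above background on all arrays of a group (predicted and clone symbols skipped), called members and up to 4 of smallest p from each list, Y-linked and X inactivation genes and the 8 largest female interaction calls; other genes in the text, and the promoters shown, were chosen after their values were seen. Members and lists were chosen with earlier results of these data known. Alternatives were other background corrections, normalizations and filters, the deposited table, blocks, array weights, RNA integrity as a covariate, and omission of arrays.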

Additional observations from a re-analysis of the deposited data

Results flagged for a closer look

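The null minus WT difference under testosterone differed from that in sham females, by the interaction term, for 8 named genes. The fitted interaction was -7.38 for Macc1, -7.08 for Tafa2, -5.05 for Npy1r, -4.48 for Ankrd34b, -4.16 for Gm2044, -4.13 for Cma1 and -3.98 for Serpinb1a. It was 4.04 for Gm20736, a predicted gene placed on unlocalized Y sequence. Macc1, Cma1 and Gm20736 each have a group without an array well above background, so their size is a fitted value only. Each of the 7 lower genes had its highest group mean in castrated null males, and the WT testosterone arrays carried Y-linked signal; its part was not tested.

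The difference also differed from that in sham males for 10 named genes. The fitted interaction was -16.67 for Akr1c18, -11.12 for Akr1d1, -7.03 for Ddx3y, -6.72 for Eif2s3y, -6.58 for Xist, -5.14 for Frzb, -5.12 for Clec4e, -4.33 for Cst8, -4.02 for Nrep and -2.57 for Cd1d2. Clec4e, a lectin of macrophages, read -7.60, -7.54 and -7.75 in WT sham males, where no array was well above background, and -2.74, -2.84 and -4.62 in null sham males. These interactions rest on arrays of both sexes with signal against the sex label, and without null sham male array 2 none of the 10 was called.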

How the results depend on the processing

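For the testosterone comparison the count of 11 calls was 23 with normexp and quantile normalization, 4 with features above background on all arrays, 19 with every probe on its own, 3 with the 6 arrays alone, 48 with the replicate block, 29 with the slide block, 18 with RNA integrity as a covariate, 341 with array weights, 5 without slide 4, 7 without the arrays with liver transcripts, and, both chosen after seeing the data, 7 without null array 1 and slide 4 together and 3 with the 6 arrays and the replicate block; leaving out 1 array gave 4 to 10. The 3 calls with the 6 arrays alone were Ddx3y, Eif2s3y and Akr1c18. For the interaction with sham females, 30 calls became 3 with the groups of the contrast alone, 46 with the slide block and 176 with array weights, and 19 to 50 without an array; with the replicate block there were 43. For the interaction with sham males, 13 became 8 with normexp and quantile normalization, 8 with features above background on all arrays, 2 with the groups alone, 311 with array weights, 6 without slide 4 and 5 without the arrays with liver transcripts, and 0 to 19 without an array. With array weights 128 of 341 calls in the testosterone comparison were higher in null (37.5%), against 1 of 11 (9.09%). Kdm5d (0.16) turned to -0.13 with normexp and -0.085 in the deposited table, and ran from -0.37 to 0.85 without an array. Tsix (-0.20) turned to 0.14 with normexp, 0.25 without slide 4, 0.42 without the arrays with liver transcripts and 0.88 without null array 1 and slide 4 together, and ran from -1.30 to 0.42 without an array; neither gene is above background on more than 1 of the 6 arrays. The cause of these shifts was not tested, and the replicate block changed no call of a named gene other than those given in the text. Ddx3y and Eif2s3y were called in all 20 alternatives that gave them a value, Kcnk3 in 19 of 21, Gm7899 in 14 of 21, Tafa2 in 11 of 21, Pla2g2e in 10 of 20, Macc1 in 8 of 20 and Obp2a in 7 of 20, each with the sign kept throughout. Counts within slide 1 or slide 2 alone were not possible, with 1 array against 1.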

Other observations

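Features on chromosome 5, which holds Kcnk3, made up 6.29% of the features tested (1939 of 30851 with a position). Among the 11 features called under testosterone in the main fit they were 2 (18.2%), Kcnk3 and AV074028. With the replicate block they were 9 of the 48 called under testosterone (18.8%). The other shares are from the main fit, without a block. Among the 153 called in sham females they were 17 (11.1%). Among calls for null against WT in sham males they were 5 of 11 (45.5%), and in castrated males 24 of 211 (11.4%). These 4 comparisons use different arrays. The counts are of features, not of distinct loci. Several probes without a symbol read the same noncoding RNA region and were counted separately, and Kcnk3 is among both the 9 and the 17. One of the 9, a noncoding RNA read at chr5:23204914-23204973 (mm9), was higher in null by 1.44 under testosterone, 2.82 in sham females, 2.31 in sham males and 2.56 in castrated males. In the main fit it was called in the last 3, and under testosterone it was called with the replicate block alone of these 2 fits. Rint1, read at chr5:23326056-23326115, was lower in null in all 4 (-1.23, -0.93, -1.07 and -1.22). Both were chosen after their values were seen, and no test of the share on chromosome 5 was made.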
